A study of Mus musculus with 248 samples.

Results

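The comparison described here is that of month 3 of the training cohort, 7 mice with an induced Cbfb-MYH11 fusion (CM) against 7 control littermates (Ctrl), 1 library of blood RNA per mouse. Its members are the training libraries labelled T3, 14 of the 248 libraries of both cohorts. Mice of 2 cohorts were bled before induction and monthly afterwards, and total RNA was sequenced after removal of ribosomal RNA. All mice were C57BL/6, and all, controls included, received 14 mg/kg of poly(I:C), an inducer of interferon, every other day for 7 doses, begun at 4 to 8 weeks of age.

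CM mice had the genotype coded CHW, a Cbfb allele that carries the fusion behind a switch (Cbfb+/56M) together with Mx1-Cre. Ctrl mice lacked 1 or both of these: 4 were CW (Mx1-Cre alone), 2 were HW (the Cbfb+/56M allele alone) and 1 was WT. Mx1-Cre is a recombinase driven by an interferon-inducible promoter, so recombination is not limited to blood stem cells, and the HW mice carry the fusion allele without the recombinase that switches it on. Of the CM mice 4 were F and 3 were M, and of the Ctrl mice 2 were F and 5 were M. The levels of Xist and Ddx3y matched the labelled sex in 14 of 14 libraries. Leukemia was defined in the labels by more than 20% cKit+ cells in blood. No training library of any month is labelled as leukemia, so the absence of that label at month 3 does not tell whether a mouse was leukemic.

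Core binding factor is a pair of a DNA-binding RUNX subunit and the CBFβ subunit, which steadies RUNX on DNA, and it is needed for the formation of blood stem cells and for several lineages. The Cbfb-MYH11 fusion, found in a human acute myeloid leukemia, joins most of CBFβ to the tail of smooth muscle myosin heavy chain and interferes with RUNX1, which holds back myeloid differentiation. In mice the fusion alone gives abnormal progenitors before any leukemia, and full leukemia follows after a delay.

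A value here is the log2 of counts per 1000000 reads of the library (log2 CPM), and a library with 0 reads of a gene sits at -6.52 on that scale. The 14 libraries held 21705306 to 28649110 reads over 18508 genes. A fold change is the log2 difference CM over Ctrl with its standard error (SE), from limma's moderated two-sided test with sex as a covariate, and a gene is called at an adjusted p (Benjamini-Hochberg over all 18508 genes) under 0.05. The labels name the tissue PBMC, blood mononuclear cells. B, T and NK cell genes were present in every library, and so were genes of other blood cells: S100a9, of neutrophils and monocytes, spanned 7.05 to 10.5 in CM and 8.49 to 10.1 in Ctrl mice, Pf4, of platelets, 6.72 to 8.19 in CM and 7.21 to 8.69 in Ctrl mice, and 4 globin genes took 1.61 to 15.5% of reads in CM and 1.78 to 5.98% in Ctrl mice. In bulk blood, fewer cells of a type and less RNA per cell cannot be told apart.

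Some libraries have to be named before the results. CM mice 3338 and 3357, the ones whose last library in the labels is that of month 4, stood apart from the other 5 CM mice, whose last libraries are those of months 6 to 10. Kit was at 6.90 and 7.12 in these mice and at 3.35 to 4.61 in the other 5. Klf1, the erythroid master regulator, was at 6.84 and 6.80 against -0.46 to 0.31 in the other 5, and the median of 20 cell cycle genes lay 4.49 and 4.18 above the Ctrl mean in them, against -0.22 to 0.91 in the other 5. Results that rest on mice 3338 and 3357 are therefore given with and without them. Both are F, as are 3336 and 3341 among the other 5. CM mouse 3341 also stood apart, in red cell genes: the median of 15 erythroid genes lay 3.29 above the Ctrl mean in it, against 3.78 in 3338, 3.67 in 3357 and 0.43 to 1.27 in the other 4 CM mice. Sample titles also carry a code, G1 to G7, whose meaning the labels do not give beyond stating that samples were randomized to batches. At month 3 the code nearly separated the arms: CM libraries were G3 (1 mouse), G4 (3) and G5 (3), and Ctrl libraries G1 (3), G2 (3) and G3 (1), so that arm and code cannot be told apart within month 3.

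At month 3, 58 genes were higher in CM mice (0.313% of the genes tested) and 59 were lower (0.319%). The higher genes had a median log2 fold change of 3.06 and spanned 0.62 to 5.59. The lower genes had a median of -1.52 and spanned -3.46 to -0.63. Over all genes the median log2 fold change was -0.07. The higher genes were of low abundance, with a median level of -0.74 log2 CPM over the 14 libraries against 2.50 for the lower genes. The training table, over all months, was filtered at 0.5 CPM in 2 samples. A gene near 0 reads in Ctrl mice is thus in it only through libraries where it is higher. Large increases among such genes are therefore partly set by the filter. The arms did not overlap for 42 of the 58 higher and 52 of the 59 lower genes, against 2.43% of all genes. Without mice 3338 and 3357, 559 genes were called, 243 higher (1.31%) and 316 lower (1.71%), and all 58 and 59 genes of the full comparison were among them. The count also moved with single other mice: it was 17 without Ctrl 3350, 22 without Ctrl 3349, 41 without CM 3370, 52 without CM 3368, 57 without Ctrl 3346, 58 without Ctrl 3335, 71 without Ctrl 3339 and 180 without CM 3341. Ctrl 3349 and 3350 are the F mice of that arm. In all 14 fits with 1 mouse left out, 16 of these genes were called, among them C4b, Ccl24, Igf1, Cpa3, Ccl2, Endou, Akap12 and Sdc1. The others lost the call in at least 1 of these fits, with adjusted p up to 0.22, and 0 changed sign.

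Genes of the fusion were read first, as a check of the labels. A row named MHY11, which the files do not define and which is kept apart from the mouse gene Myh11, had reads in all 7 CM libraries, 46 in all, and 1 read in the Ctrl libraries, in HW mouse 3340. The ratio was 42.0 (exact 95% counting interval 7.17 to 1690, counting error only). Mouse Myh11, smooth muscle myosin heavy chain, was at 1.67, 2.30 and 3.35 (lowest, median, highest) in CM mice and at -3.47, -2.48 and 1.76 in Ctrl mice, a log2 fold change of 4.14 ± 0.83 (SE, adjusted p = 0.038). The 2 HW controls were at 1.73 and 1.76, within the CM range, and the other Ctrl mice lay between -3.47 and -2.13. Before induction Myh11 was already higher in value in CM mice, with a log2 fold change of 3.24 ± 0.66 at month 0 (adjusted p = 0.35). Its change from month 0 to month 3 differed between the arms by 0.89 (adjusted p = 0.73). The month 3 call is thus not by itself a change since induction. Without the HW controls the fold change of Myh11 was 5.23 (adjusted p = 3.1e-05), and its arms then did not overlap. Cbfb itself was at 5.58, 6.09 and 6.62 in CM mice and at 6.31, 6.61 and 6.72 in Ctrl mice, which overlapped (log2 fold change -0.40 ± 0.15, adjusted p = 0.23). Of 8 genes listed for core binding factor and the fusion, Myh11 and MHY11 were called higher and none lower. No subunit of core binding factor passed the test: Runx1 was at a log2 fold change of 0.29, Runx2 at 0.44 and Runx3 at -0.02.

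Genes of mast cells and basophils, granulated cells that release histamine and proteases on IgE binding, gave the highest list median over all CM mice. Of 18 measured genes 2 were called higher and 0 lower, and the list's median log2 fold change was 2.12 against -0.07 for all genes. Without mice 3338 and 3357 the list median was 1.29, and the erythroid list was then the highest, at 1.37. Cpa3, the mast cell carboxypeptidase, was at 2.29, 4.17 and 8.28 in CM mice and at -1.44, -1.31 and -0.33 in Ctrl mice. The arms did not overlap, and the lowest CM mouse lay 2.62 above the highest Ctrl mouse (log2 fold change 5.27 ± 0.65, adjusted p = 0.0024). Mcpt8, a protease of basophils, was at -0.18, 1.26 and 1.79 in CM mice and at -1.66, -1.30 and -0.10 in Ctrl mice. It rose by 2.18 ± 0.38 (adjusted p = 0.017), and the lowest CM mouse, 3357, lay just under the highest Ctrl mouse, HW mouse 3335. Mice 3338 and 3357 differed from each other here: Cpa3 was at 8.28 in 3338 and at 5.67 in 3357, and Mcpt8 at 1.15 in 3338.

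Other genes of that list had large differences that were not called over all 7 CM mice. Mcpt1, a mucosal mast cell protease, was at 0.32, 2.19 and 11.1 in CM mice and at -6.52, -3.36 and -1.41 in Ctrl mice, so the arms did not overlap (log2 fold change 6.79, adjusted p = 0.067). Fcer1a and Ms4a2, subunits of the IgE receptor, had log2 fold changes of 4.10 (adjusted p = 0.091) and 3.90 (adjusted p = 0.13), and Il1rl1, the receptor of interleukin 33, had 3.69 (adjusted p = 0.12). In these genes the highest CM values were 9.01 for Fcer1a, 9.69 for Ms4a2 and 10.9 for Il1rl1. Without mice 3338 and 3357 the differences were smaller and all 4 were called, along with Gata2, a transcription factor of these cells and of progenitors: 7 of the 18 genes were then higher, with log2 fold changes of 4.93 for Mcpt1 (adjusted p = 0.008), 2.82 for Fcer1a, 2.51 for Ms4a2, 2.39 for Il1rl1 and 0.77 for Gata2, and the list median was 1.29. Cma1, a chymase, and Hpgds, the prostaglandin D synthase, ran the other way without passing the test, at -0.77 and -0.48.

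Promoters of called genes were searched for the core binding factor motif, TGTGGT on either strand. Windows of 300 bases, 250 before and 50 after a transcript start, the first that the table lists for a gene, were taken from RefSeq (GRCm38.p6) for the 70 called genes that matched by symbol. That start need not be the outermost one of the gene. The motif was in 7 of 34 windows of higher genes (20.6%), in 6 of 36 of lower genes (16.7%) and in 16.9% of 27025 windows of all genes, so its share among called genes was near that of all genes. The GATA factor motif AGATAA, either strand, which can overlap the other by 1 base at most, was in 4 of the 34 windows of higher genes (11.8%), in 1 of the 36 of lower genes (2.78%) and in 11.4% of all windows. Shown are windows that hold the core binding factor motif, in capitals, for 3 of the higher genes described in the text and for Ncr1, a lower one. They are 5′ to 3′ on the strand of the gene, Cpa3 at chr3:20242132-20242431 (minus), Mcpt8 at chr14:56085148-56085447 (minus), Il9r at chr11:32200230-32200529 (minus) and Ncr1 at chr7:4337465-4337764 (plus). The Il9r and Mcpt8 windows lie within the annotated span of their genes.
Cpa3: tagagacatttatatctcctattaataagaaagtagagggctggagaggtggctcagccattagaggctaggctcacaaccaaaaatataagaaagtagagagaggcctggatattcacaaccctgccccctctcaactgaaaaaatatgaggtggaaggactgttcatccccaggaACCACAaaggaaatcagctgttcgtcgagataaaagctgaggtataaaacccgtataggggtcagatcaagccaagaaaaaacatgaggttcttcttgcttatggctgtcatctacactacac
Mcpt8: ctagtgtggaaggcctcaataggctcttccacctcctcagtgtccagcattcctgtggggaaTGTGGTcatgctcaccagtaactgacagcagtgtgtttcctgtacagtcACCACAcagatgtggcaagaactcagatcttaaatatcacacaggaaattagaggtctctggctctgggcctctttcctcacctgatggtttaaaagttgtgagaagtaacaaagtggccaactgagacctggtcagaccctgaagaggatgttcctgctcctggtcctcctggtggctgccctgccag
Il9r: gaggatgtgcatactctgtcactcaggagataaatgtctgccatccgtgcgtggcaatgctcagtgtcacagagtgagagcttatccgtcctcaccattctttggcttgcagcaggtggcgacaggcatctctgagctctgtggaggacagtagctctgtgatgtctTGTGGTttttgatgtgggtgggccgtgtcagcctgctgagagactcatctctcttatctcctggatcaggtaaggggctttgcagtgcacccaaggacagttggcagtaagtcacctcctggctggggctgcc
Ncr1: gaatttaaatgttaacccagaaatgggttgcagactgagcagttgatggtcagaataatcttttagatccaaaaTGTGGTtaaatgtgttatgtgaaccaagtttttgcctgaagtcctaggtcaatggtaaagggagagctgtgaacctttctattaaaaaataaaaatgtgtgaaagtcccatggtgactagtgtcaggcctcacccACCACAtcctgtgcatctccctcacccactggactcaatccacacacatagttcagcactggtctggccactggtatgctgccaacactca
The Cpa3 and Il9r windows hold 1 match each and the Mcpt8 and Ncr1 windows 2 each, and the window of Kit holds none. A match says nothing of binding, which was not measured here.

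Genes of stem and progenitor cells were led by Kit, the stem cell factor receptor that also defines the blasts of this model. Kit was at 3.35, 4.26 and 7.12 in CM mice and at 1.41, 2.45 and 2.53 in Ctrl mice. The arms did not overlap (log2 fold change 2.47 ± 0.50, adjusted p = 0.038), and the lowest CM mouse, 3334, was 0.82 above the highest Ctrl mouse. It was called in 6 of the 14 fits with 1 mouse left out, with an adjusted p of 0.18 without Ctrl 3350. When mice 3338 and 3357 were left out, the fold change was 1.90 and the adjusted p fell to 0.0035. Of 21 measured genes of the list, 1 was called higher and 1 lower, with a median log2 fold change of 0.84. The lower one was Sox4, a transcription factor of progenitors and of early B cells, at 2.0, 3.21 and 3.49 in CM mice and at 3.84, 4.35 and 4.68 in Ctrl mice (log2 fold change -1.25 ± 0.22, adjusted p = 0.021). Erg, a stem cell transcription factor, had a log2 fold change of 3.64 (adjusted p = 0.11), Hlf 2.58 (adjusted p = 0.16) and Cd34, a surface marker of progenitors, 1.23 (adjusted p = 0.15). These 3 were called without mice 3338 and 3357, at 2.48, 1.69 and 1.52. Flt3, a receptor of early progenitors and dendritic cells, was at -0.07 and did not pass the test.

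**Figure D1:**
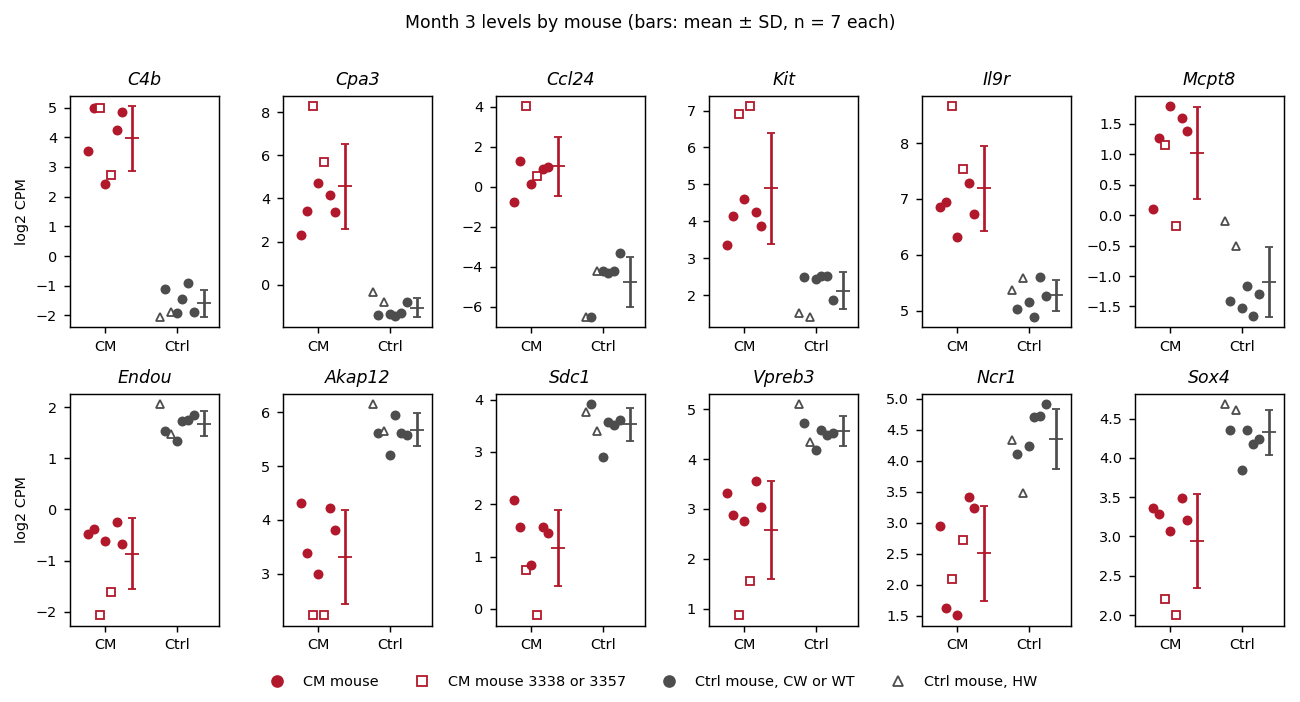
Month 3 levels of 12 called genes, log2 CPM on the vertical axis, CM mice left of Ctrl mice, 1 point per mouse, with mean ± SD (n = 7 each) beside them. Squares are CM mice 3338 and 3357 and triangles HW controls; Kit runs from 3.35 to 7.12 in CM mice, with the squares on top, while C4b separates the arms without them standing out.

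The list of stem and progenitor genes shares Kit with that of growth factor and cytokine receptors, in which 2 of 17 genes were called higher and 0 lower, with a median log2 fold change of 0.40. The other called receptor was Il9r, through which interleukin 9 acts on mast cells and T cells. Il9r was at 6.32, 6.95 and 8.66 in CM mice and at 4.89, 5.27 and 5.61 in Ctrl mice. The arms were 0.72 apart (log2 fold change 1.82 ± 0.28, adjusted p = 0.010), and it was called in 13 of the 14 fits with 1 mouse left out, the exception being Ctrl 3350 (adjusted p = 0.059). Rhbdf1, an inactive rhomboid protease, is the next gene on chromosome 11 (GRCm38.p6 32209585 to 32222331), 4302 bases from Il9r (32187544 to 32205283). Its level was 3.99, 4.92 and 5.48 in CM mice and 3.15, 3.47 and 3.68 in Ctrl mice, again without overlap (log2 fold change 1.45 ± 0.22, adjusted p = 0.0079). Rhbdf1 was chosen after its values were seen. Receptors with large differences that were not called included Epor, the erythropoietin receptor, at 2.21 (adjusted p = 0.17), and Tek, the angiopoietin receptor, at 3.65 (adjusted p = 0.22). Tek reached 6.57 in its highest CM mouse, with a CM median of -0.81. Without mice 3338 and 3357, 6 of the 17 receptors were higher, Il1rl1, Epor, Csf2rb2 and Pdgfrb joining Kit and Il9r.

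C4b, a component of the classical complement pathway, had the largest fold change of the 58 higher genes. It was at 2.41, 4.24 and 4.99 in CM mice and at -2.05, -1.87 and -0.91 in Ctrl mice. The lowest CM mouse lay 3.31 above the highest Ctrl mouse (log2 fold change 5.59 ± 0.44, adjusted p = 2.7e-05). The reads were spread over the CM mice, with 24.7% of them in mouse 3338, and the fold change without 3338 and 3357 was 5.61. The highly similar C4a did not pass the test, at -0.62 to 1.19 in CM and -0.32 to 0.77 in Ctrl mice (log2 fold change 0.08), though reads can be split between such copies. C3, the central component of complement, was at 7.47, 8.43 and 9.43 in CM mice and at 6.85, 7.17 and 7.45 in Ctrl mice. It rose by 1.27 ± 0.26 (adjusted p = 0.044), the arms being only 0.02 apart, and was called in 4 of the 14 fits with 1 mouse left out. Of 11 complement genes these 2 were called higher and 0 lower, with a list median of 0.92.

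Several secreted or macrophage-associated genes were higher in CM blood, Ccl24 and Igf1 among them being absent or nearly so in Ctrl blood. Ccl24, an eosinophil-attracting chemokine made by macrophages, was at -0.77, 0.88 and 4.02 in CM mice and at -6.52, -4.24 and -3.34 in Ctrl mice, 663 reads against 6 (log2 fold change 5.41 ± 0.66, adjusted p = 0.0024). Igf1, insulin-like growth factor 1, was at -0.01, 0.99 and 3.90 in CM mice and at -6.52, -4.24 and -2.43 in Ctrl mice, 676 reads against 9 (log2 fold change 5.36 ± 0.71, adjusted p = 0.0036). For both, mouse 3338 held most of the CM reads, 64.6% for Ccl24 and 58.1% for Igf1. The other CM mice were nevertheless above every Ctrl mouse, and the fold changes without 3338 and 3357 were 5.15 and 5.22. Mrc1, the macrophage mannose receptor, was at 3.48, 4.70 and 5.83 in CM mice and at 2.37, 3.02 and 3.73 in Ctrl mice, with overlap (log2 fold change 1.76 ± 0.33, adjusted p = 0.029). Mertk, a receptor for the uptake of dying cells, and Ccl2, a monocyte-attracting chemokine, both chosen after their values were seen, rose by 3.88 ± 0.71 (adjusted p = 0.023) and 2.69 ± 0.37 (adjusted p = 0.0049). Of 16 monocyte and macrophage genes, Mrc1 was called higher and 0 were called lower, with a list median of 0.24. Treml4 (-1.23, adjusted p = 0.055) and Cx3cr1 (-1.17, adjusted p = 0.059), which mark patrolling monocytes, were not called and did not overlap between the arms: Cx3cr1 was at 4.12, 5.65 and 6.07 in CM mice and at 6.43, 6.65 and 7.06 in Ctrl mice.

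Genes of granulocyte precursors and neutrophils gave few calls. Mpo, the myeloperoxidase of primary granules, was at -1.64, -0.32 and 0.68 in CM mice and at -4.31, -2.83 and -1.47 in Ctrl mice. The rise was 2.08 ± 0.41 (adjusted p = 0.035), with overlap at the edges, and Mpo was called in 7 of the 14 fits with 1 mouse left out. It was the sole call among 9 primary granule genes, whose median log2 fold change was 1.47; Prtn3, proteinase 3 of the same granules, had 1.83 (adjusted p = 0.058). Of 14 genes of mature neutrophils 0 were called in either direction, with a list median of 0.69. The lowest p values there belonged to Lcn2 (1.82, adjusted p = 0.056), Ly6g (2.07, adjusted p = 0.080), Ngp (2.36, adjusted p = 0.092) and Camp (2.38, adjusted p = 0.15), of which all but Ly6g, a surface marker, are proteins of secondary granules. Among the other 5 CM mice, Lcn2, Ly6g and Cd177 were called higher. Mouse 3357 itself was low for this list, with a median 1.39 below the Ctrl mean, while mouse 3370 was 2.02 above it.

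The remaining large increases were mostly genes with few reads in Ctrl mice. Kif26b, a kinesin, was at -0.48, 0.44 and 7.65 in CM mice and at -6.52, -3.40 and -2.82 in Ctrl mice, with 86.1% of the CM reads in mouse 3357 (log2 fold change 5.18 ± 1.05, adjusted p = 0.038; 4.01 without 3338 and 3357). Slc45a3, a solute carrier, was at 1.64, 1.76 and 6.26 in CM mice and at -4.19, -1.66 and 0.44 in Ctrl mice (4.74 ± 0.93, adjusted p = 0.035; 3.76 without them). In both genes the other 5 CM mice were close to one another and above every Ctrl mouse. Ednrb, an endothelin receptor, rose by 4.66 ± 0.79, Maob, monoamine oxidase B, by 4.58 ± 0.79, Prok2, a prokineticin made by myeloid cells, by 4.61 ± 0.78, Stfa2, a cysteine protease inhibitor of neutrophils, by 4.28 ± 0.74, and Mb21d2 by 4.07 ± 0.66, with adjusted p between 0.012 and 0.017. Prok2 was highest in mice 3336 (1.58) and 3338 (1.35), and Stfa2 in mouse 3370 (1.03), so not all of these genes followed mice 3338 and 3357. Gstt1, a glutathione transferase, was at 1.51, 2.78 and 4.59 in CM mice and at -0.96, -0.61 and 1.21 in Ctrl mice (2.99 ± 0.55, adjusted p = 0.023). It was the only call among 12 glutathione transferases, whose median was 0.09. Gm16758, a predicted gene chosen after its values were seen, had reads in all 7 CM libraries and 0 reads in any Ctrl library, which makes it at least 35.9-fold higher, with 3 reads taken as the floor over the Ctrl group.

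**Figure D2:**
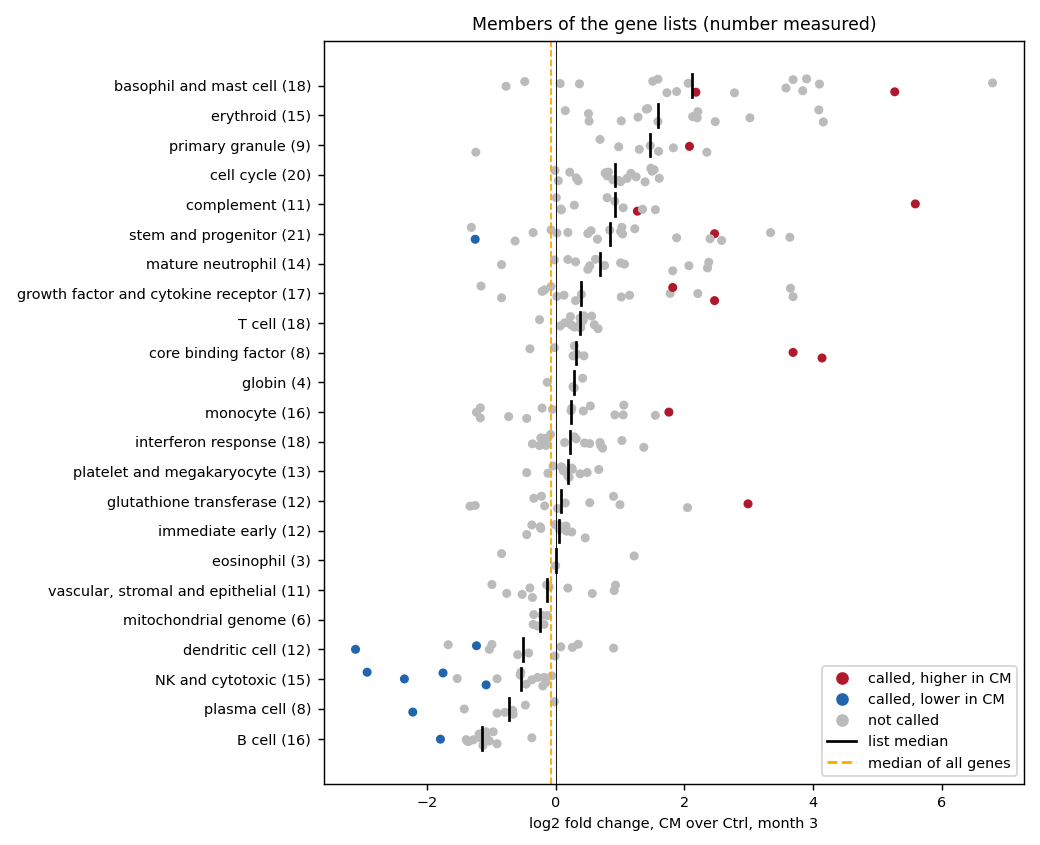
Log2 fold change at month 3 (horizontal axis, CM over Ctrl) of every measured member of 23 gene lists, 1 point per gene, with the number measured in brackets, a black bar at the list median and a dashed line at the median of all genes. With mice 3338 and 3357 included, mast cell and basophil genes have the highest median (2.12). B cell genes have the lowest (-1.15), and few members of any list are called.

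Genes of red cell precursors were higher in CM blood in value, yet 0 of 15 were called in either direction, with a list median of 1.59. Car1, carbonic anhydrase 1 of erythroid cells, was at 0.15, 1.15 and 8.50 in CM mice and at -2.44, -1.87 and -1.41 in Ctrl mice (log2 fold change 4.16, adjusted p = 0.13). Klf1 was at -0.46, 0.23 and 6.84 in CM mice and at -4.19, -2.37 and -1.71 in Ctrl mice (4.09, adjusted p = 0.14). For both genes every CM mouse was above every Ctrl mouse, but the CM mice were spread over more than 7 log2 units. In the fit without mice 3338 and 3357, Car1 (2.66), Klf1 (2.58) and Epor (1.32) were called higher, and the list median was 1.37. Rhag and Rhd, of the Rh complex of red cells, had log2 fold changes of 2.13 and 2.48 (adjusted p = 0.15 and 0.16). They were at 5.14 and 4.94 in mouse 3341, whose levels of Car1 (1.15) and Klf1 (0.23) were within those of the other 4 CM mice. Without 3341 alone the list median was 1.45 with 0 called, and the fit without 3338 and 3357 still holds 3341. The 4 globin genes had a median of 0.28 with 0 called. Their share of reads was 4.85 ± 4.79% in CM mice and 4.00 ± 1.54% in Ctrl mice (SD, n = 7 each; two-sided exact permutation test, 3432 splits, p = 0.89). CM mouse 3341 held the highest share, 15.5%, and without it the CM mean was 0.932 percentage points below the Ctrl mean. The share of 6 mitochondrial genes was 0.411 ± 0.12% in CM and 0.46 ± 0.0584% in Ctrl mice (exact permutation p = 0.35; adjusted over both shares, 0.89 for globin and 0.69 for mitochondrial genes), and 0 of these genes were called, with a median of -0.24.

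The cell cycle list differed widely between CM mice. Of its 20 genes 0 were called, with a median log2 fold change of 0.93, and 0.06 without mice 3338 and 3357. Mki67, the proliferation marker, was at 4.34, 5.07 and 9.93 in CM mice and at 3.94, 4.44 and 4.95 in Ctrl mice, with overlap. Birc5 (1.53, adjusted p = 0.30) and Ccnb2 (1.25, adjusted p = 0.32), of mitosis, had the lowest p values. Mouse 3341 lay 0.91 above the Ctrl mean in this list and the other 4 CM mice between -0.22 and 0.24. Without 3338 and 3357, 1 gene was called, Mcm5, and it was lower in CM mice.

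**Figure D3:**
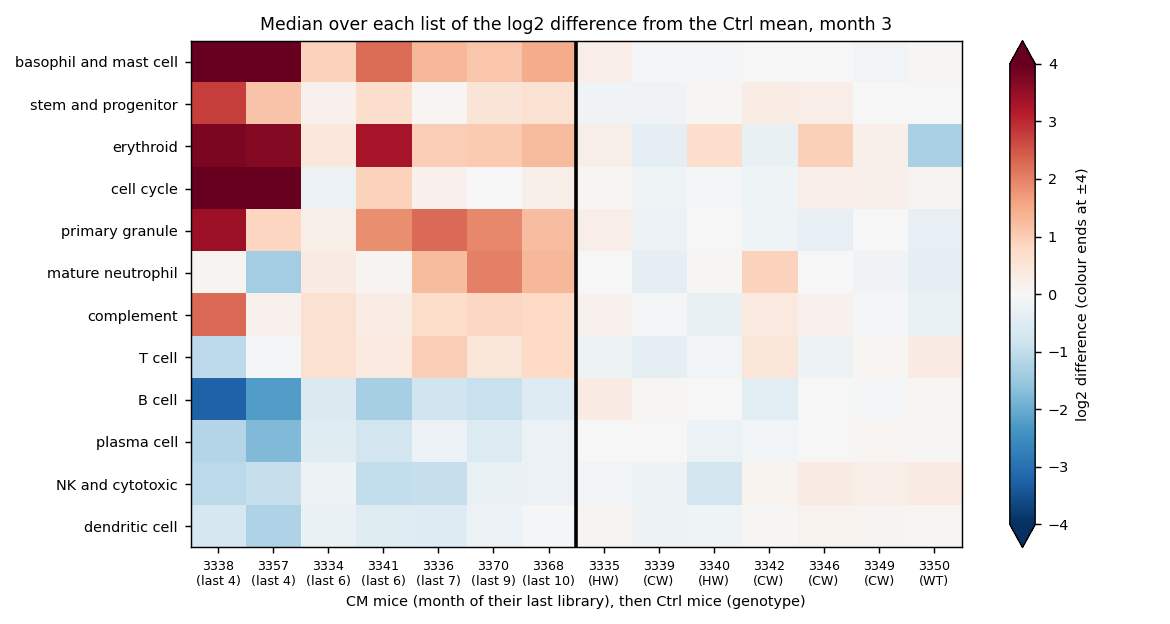
Each square is the median over a gene list (rows) of the log2 difference from the Ctrl mean in 1 mouse (columns), CM mice ordered by the month of their last library and then Ctrl mice, on a colour scale that ends at ±4. Mice 3338 and 3357 are 4.49 and 4.18 for the cell cycle and -3.22 and -2.24 for B cells, where the other CM mice lie between -1.32 and -0.51.

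B cell genes had lower values in CM blood. Of 16 measured genes 0 had a positive log2 fold change, with a median of -1.15 against -0.07 for all genes, yet 1 was called. Before induction the list was already lower in value in the CM mice: 0 of 16 genes were positive at month 0, with a median of -0.47, 8 at an unadjusted p under 0.05 and 0 called. Of all 18508 genes, 1281 were lower at that p at month 0, and the median over all genes was -0.04. The B cell list had a median of -0.69 at month 1 and -0.66 at month 2. Vpreb3, a protein of the pre-B and B cell receptor, was at 0.87, 2.87 and 3.56 in CM mice and at 4.18, 4.53 and 5.10 in Ctrl mice. It fell by 1.79 on the log2 scale (SE 0.33, adjusted p = 0.023), and the arms were 0.61 apart. Cd79b, of the B cell receptor, was at 6.56, 8.76 and 9.09 in CM mice and at 9.46, 9.72 and 10.3 in Ctrl mice (-1.28, adjusted p = 0.072). With mice 3338 and 3357 left out, 14 of the 16 genes were called lower, with a list median of -0.77, a smaller difference than with them. In that fit Cd79a was at -0.78 and Cd72 at -1.05. Iglc2, a light chain gene chosen after its values were seen, fell by 1.51 (SE 0.32, adjusted p = 0.0496).

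Plasma cell and dendritic cell genes gave 3 calls, all lower. Sdc1, syndecan 1, which marks plasma cells, was at -0.12, 1.45 and 2.09 in CM mice and at 2.91, 3.57 and 3.91 in Ctrl mice (log2 fold change -2.22 ± 0.28, adjusted p = 0.0025). Of 8 plasma cell genes it was the only call, with a median of -0.73 and 0 positive values. Of 12 dendritic cell genes 2 were called lower and 0 higher, with a median of -0.50. Siglech, a receptor of plasmacytoid dendritic cells, was at 1.24, 1.95 and 2.67 in CM mice and at 2.52, 3.30 and 3.51 in Ctrl mice, overlapping in mouse 3334 (-1.23 ± 0.24, adjusted p = 0.035). Klk1, a kallikrein protease, was at -6.52, -3.46 and -2.07 in CM mice and at -2.06, -0.50 and 0.21 in Ctrl mice (-3.11 ± 0.64, adjusted p = 0.044), and its arms were next to each other without overlap. Irf8 and Xcr1, needed by and marking cross-presenting dendritic cells, were at -1.03 and -1.67 (adjusted p = 0.072 for both).

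NK cell receptor genes formed the largest group of called list members. Of 15 NK and cytotoxic genes 4 were called lower and 0 higher, with a median of -0.54. Ncr1, the activating receptor NKp46, was at 1.51, 2.72 and 3.41 in CM mice and at 3.48, 4.33 and 4.91 in Ctrl mice (-1.75 ± 0.32, adjusted p = 0.024). Klra4 and Klra8, Ly49 receptors for MHC class I, were lower by 2.93 ± 0.55 and 2.35 ± 0.44 on the log2 scale (adjusted p = 0.028 and 0.025). Klra4 was at -3.53, -1.97 and 1.06 in CM mice and at 1.28, 2.57 and 2.68 in Ctrl mice, and the CM mice fell apart: 3334, 3368 and 3370, the M mice, were at 0.12 to 1.06, and the 4 F mice at -3.53 to -1.97. Within the sexes the log2 fold change of Klra4 was -5.03 in F and -1.44 in M mice, that of Klra8 -4.01 in F and -1.16 in M mice, and that of Ncr1 -2.82 in F and -0.98 in M mice. For Klrb1c it was -1.71 in F and -0.63 in M mice. Whether the sexes differ was not tested for these genes, and 2 of the Ctrl mice were F. Klrb1c, the NK1.1 antigen, was at 2.74, 3.08 and 3.60 in CM mice and at 3.21, 4.26 and 4.78 in Ctrl mice (-1.08 ± 0.23, adjusted p = 0.046) and was called in 1 of the 14 fits with 1 mouse left out. Klri2 (-1.80), Klrb1b (-1.88) and Xcl1 (-1.09), further NK genes chosen after their values were seen, were also called lower. Klra4 and Klra8 lie 47925 bases apart on chromosome 6, and Klrb1c and Klrb1b 25065 bases apart, in gene families whose members are alike enough that reads can be assigned to a relative. Effector genes were lower in value without a call: Gzma, granzyme A, was at -1.53 (adjusted p = 0.11) and Prf1, perforin, at -0.91 (adjusted p = 0.18), while Gzmb was at -0.15.

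T cell genes gave 0 calls among 18, with a median of 0.38 and 17 of 18 above 0. Cd28 (0.60, adjusted p = 0.30), Bcl11b (0.66, adjusted p = 0.31), Cd4 (0.56, adjusted p = 0.35) and Cd6 (0.43, adjusted p = 0.46) had the lowest p values, and mouse 3338 was the lowest of the 7 CM mice for all 4. Without 3338 and 3357, 8 T cell genes were called higher, Cd28 at 0.85, Bcl11b at 0.95 and Cd4 at 0.81 among them, and the list median was 0.65. With median-ratio scaling the T cell list also had 0 calls. That scaling put the median of all genes at 0.02 and gave 88 higher and 54 lower genes (62% higher, against 49.6%), and CPM plus 1 before the log gave 34 higher and 130 lower (20.7% higher).

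The other lists held no call. Platelet and megakaryocyte genes had 0 of 13 called and a median of 0.19, led by Gp1bb at 0.67 (adjusted p = 0.16). Of 18 interferon response genes 0 were called, with a median of 0.22; Oasl2 was at 0.69 (adjusted p = 0.13) and Isg15 at 1.37 (adjusted p = 0.14). Oas3 and Oas1e, antiviral oligoadenylate synthase genes 8628 bases apart on chromosome 5 that were outside that list and chosen after their values were seen, rose by 1.14 ± 0.22 and 1.92 ± 0.40 (adjusted p = 0.032 and 0.042). Immediate early genes, which can follow sample handling, had 0 of 12 called and a median of 0.05. Eosinophil genes had 3 measured and 0 called, with a median of 0.00; Ccr3 was at 1.22 and Il5ra at -0.84. The 5 sex chromosome genes had 0 called and a median of -0.37 with sex in the fit. Vascular, stromal and epithelial genes, as a check of other tissue, had 0 of 11 called and a median of -0.14; Kdr was at 0.93 (adjusted p = 0.14) and Cdh5 at -0.99 (adjusted p = 0.17).

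Among the largest decreases outside these lists, Egfl6, a secreted growth factor-like protein, was at -6.52, -4.29 and -2.11 in CM mice and at -1.31, -0.12 and 0.43 in Ctrl mice, with 12 reads over the CM libraries (-3.46 ± 0.56, adjusted p = 0.012). Endou, an endoribonuclease, was at -2.07, -0.62 and -0.24 in CM mice and at 1.34, 1.74 and 2.06 in Ctrl mice, 1.58 apart (-2.46 ± 0.30, adjusted p = 0.0024). Akap12, a scaffold of protein kinase A, was at 2.23, 3.38 and 4.31 in CM mice and at 5.21, 5.61 and 6.15 in Ctrl mice (-2.14 ± 0.26, adjusted p = 0.0024), and Cecr2, a bromodomain protein, at 1.66, 3.99 and 4.48 in CM mice and at 5.14, 5.83 and 6.23 in Ctrl mice (-2.10 ± 0.36, adjusted p = 0.016). Col5a3 (a collagen chain), Wnt10a (a Wnt ligand), Lgr5 (an R-spondin receptor) and Galnt14 (a glycosyltransferase) fell by 2.63, 2.29, 2.20 and 2.17 on the log2 scale, all without overlap of the arms and with adjusted p between 0.011 and 0.049. The SD of Akap12 was 0.87 in CM and 0.30 in Ctrl mice, and that of Vpreb3 0.98 in CM and 0.29 in Ctrl mice (n = 7 each). Rapgef3, an exchange factor for the GTPase Rap and chosen after its values were seen, lies 13365 bases from Endou on chromosome 15 and fell by 1.52 (SE 0.26, adjusted p = 0.017).

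The title code was examined where the arm does not differ, in 39 Ctrl libraries of other months, 21 coded G4 or G5 and 18 coded G1 or G2, with mouse and month in the fit. Of 18508 genes 10 were called (0.054%), and 0 of the called month 3 genes were among them. Over all genes 14460 were higher in value in G4 or G5 and 4048 lower, with a median log2 difference of 0.18. In that limma fit 708 genes were higher and 95 lower at an unadjusted p under 0.05. The median absolute log2 difference of the called month 3 genes was 0.25 between the codes, against 0.22 for all genes and 2.01 between the arms at month 3. Kif26b had the largest, -1.17, opposite to its arm difference, while Ednrb and Maob, each at 0.90, and Mpo, at 0.84, differed in the direction of their own. Within code G3, which held CM mouse 3334 and Ctrl mouse 3339, all called genes but 2, Gm10287 and Siglech, differed in the direction of the arms. Both mice had a part in choosing those genes, so this agreement was largely set by the choice and cannot bear on the code. In a fit over all months with the mouse as a block and the code as a term, 65 genes were called higher and 42 lower at month 3 (0.578% in all). Of the 58 and 59 genes, 23 and 21 were among them, and 0 changed sign. In it C4b was at 5.33 and Cpa3 at 5.60. Of the 20 list members called at month 3, 12 were called in that fit and 8 were not: Il9r (adjusted p = 0.053), Klk1 (0.14), Mcpt8 (0.22), Klrb1c (0.24), Mrc1 (0.27), Siglech (0.32), C3 (0.70) and Mpo (0.78). Prok2 was not called in it either (adjusted p = 0.13).

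The same 14 mice were also bled at months 0, 1 and 2, which gives the course of the month 3 genes, with mice but no libraries in common. The median log2 fold change of the 58 higher genes was 0.40 at month 0, 2.75 at month 1, 1.99 at month 2 and 3.06 at month 3, and that of the 59 lower genes -0.36, -1.17, -1.11 and -1.52. Those genes were chosen on month 3, so that its larger values are part of the choice. The change from month 0 to month 3 differed between the arms for 5 genes (0.027%), all with the larger increase in CM mice: Cpa3 (4.18 ± 0.61), Gm16758 (5.27 ± 0.77), Il9r (2.03 ± 0.30), Rhbdf1 (1.86 ± 0.27) and C4b (5.18 ± 0.77), with adjusted p of 0.020 or 0.021, and 0 had a smaller one. Il9r was at 5.34 ± 0.80 in CM and 5.37 ± 0.23 in Ctrl mice before induction, and at 6.76 ± 0.55 in CM and 5.38 ± 0.67 in Ctrl mice at month 1 (SD, n = 7). These 5 calls were 0 without mice 3338 and 3357, 0 without any of CM 3368, CM 3370, Ctrl 3335, Ctrl 3339, Ctrl 3346, Ctrl 3349 or Ctrl 3350, 9 without Ctrl 3340, 8 without Ctrl 3342 and 46 without CM 3334. For Akap12 the change was -1.55 (adjusted p = 0.28) and for Kit 2.22 (adjusted p = 0.55).

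From month 1 to month 3 no gene changed differently between the arms in limma's test (0 calls; 1192 genes, 6.44%, at an unadjusted p under 0.05), and the lowest adjusted p was 0.61. From month 2 to month 3 there was 1 call. F730016J06Rik, a transcript with no assigned function, was at 0.64 ± 1.12 in CM and -2.86 ± 1.08 in Ctrl mice at month 3, and at 0.45 ± 0.80 in CM and 0.25 ± 0.90 in Ctrl mice at month 2, a difference of changes of 3.79 ± 0.49 (adjusted p = 0.0092). The call was lost without CM 3334 or Ctrl 3349. Erythroid genes had list medians of 3.38 at month 1, 1.93 at month 2 and 1.59 at month 3, and mast cell and basophil genes 1.59, 1.44 and 2.12 at these months. The T cell list was at 0.25, 1.18 and 0.38 at months 1, 2 and 3, with 0, 17 and 0 of 18 genes called higher. The NK and cytotoxic list was at -0.87, -0.05 and -0.54, with 7, 2 and 4 of 15 genes called lower. Over all 18508 genes, 681, 1010 and 58 were called higher and 248, 1157 and 59 lower at these months. The number of calls thus changed between months for all genes, and not for these lists alone.

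**Figure D4:**
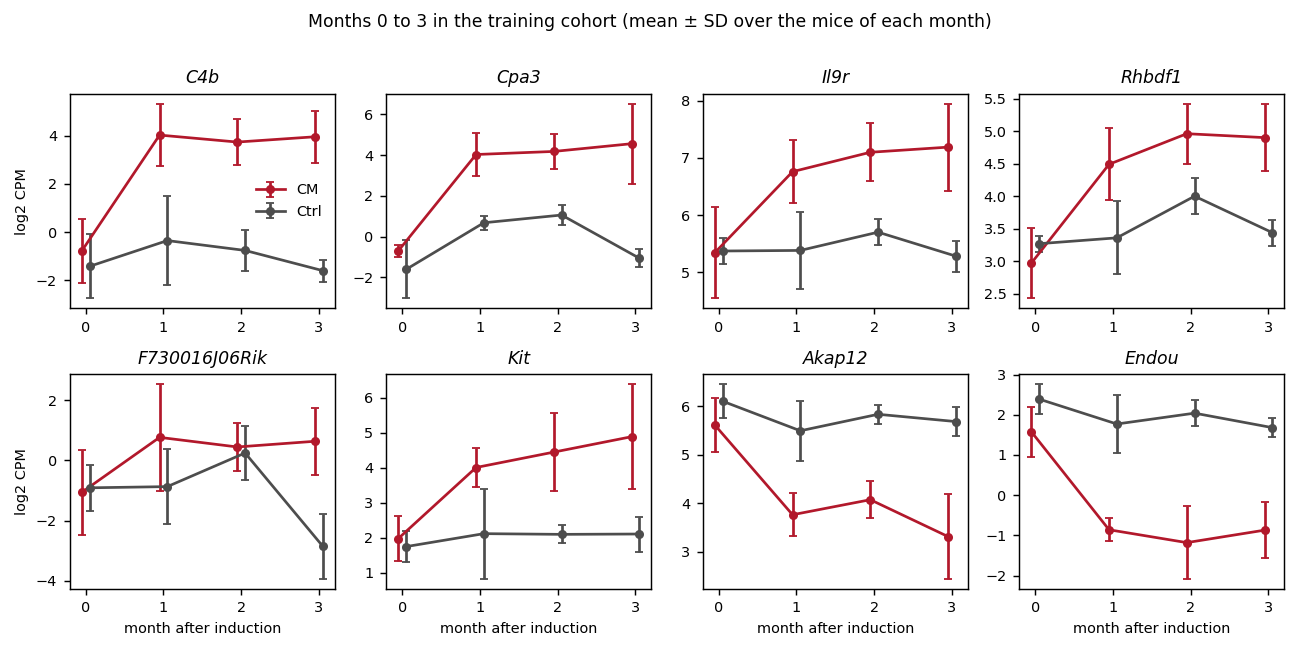
Mean ± SD of log2 CPM (vertical axis) at months 0 to 3 after induction (horizontal axis) for 8 called genes in CM and Ctrl mice, n = 7 per arm and month. Il9r starts at 5.34 in CM mice, against 5.37 in Ctrl mice, and is at 6.76 in CM mice, against 5.38 in Ctrl mice, at month 1, while F730016J06Rik is at 0.64 in CM and -2.86 in Ctrl mice at month 3.

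Month 3 of the validation cohort, 9 CM and 6 Ctrl mice that played no part in choosing the genes, was read for the 91 called genes that its table holds. Its table was made separately, with 13607 genes. It holds leukemia libraries too and was filtered at 5 CPM in 2 samples. A gene low in Ctrl mice can thus be in it only through libraries where it is high. Agreement among the higher genes is therefore partly set by the filter, and the same-sign share over all genes is not a like comparison. CM mouse 2700 of that cohort had 0 reads of MHY11, against 3104 reads over the other 8 CM mice. Calls and counts at an unadjusted p are therefore given with and without the library labelled 2700, and other values with it. Over all genes 0 were called in that cohort (lowest adjusted p 0.30; 0 with voom as well), with 2224 genes (16.3%) at an unadjusted p under 0.05, 973 higher (7.15%) and 1251 lower (9.19%). Of the 43 higher genes measured, 40 had the same sign and 27 had it at an unadjusted p under 0.05. Of the 48 lower ones, 47 had the same sign and 25 at an unadjusted p under 0.05. The same sign held for 69.4% of all 13232 genes in both tables. The median log2 fold change of the 43 was 1.86 (2.61 in the training cohort) and that of the 48 was -1.27 (-1.33). Without mouse 2700, 30 of the 43 and 34 of the 48 were at an unadjusted p under 0.05 with the same sign, 0 genes were called and the lowest adjusted p was 0.093.

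Of the leading genes, C4b was at 2.24 ± 1.69 in CM and -1.20 ± 0.74 in Ctrl mice of that cohort (SD, n = 9 CM and 6 Ctrl), a log2 fold change of 3.42 ± 0.73 (SE). There Cpa3 averaged 6.4 ± 3.25 in CM and 2.0 ± 0.96 in Ctrl mice (log2 fold change 4.41 ± 1.34). The log2 fold change was 4.01 for Kit and 1.52 for Il9r. Mcpt8, with 0.59, Prok2, with 1.23, and C3, with 0.60, had unadjusted p values of 0.47, 0.16 and 0.17, and 4 genes had the opposite sign with values near 0: Ddr1, Aldh1l1, Gpx3 and 2410006H16Rik. Klra4 (-2.96) and Ncr1 (-2.16) were lower there too, at unadjusted p values of 0.012 and 0.032. The 2 HW controls of that cohort had MHY11 levels of 2.64 and 3.09 log2 CPM, while in the training cohort 1 HW control had 1 read and the other 0.

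Not every list ran the same way in the validation cohort, where 0 members of any list were called. T cell genes had a median of -0.46 there with 0 of 18 above 0, opposite to the training cohort, and mature neutrophil genes -0.67 with 4 of 14 above 0. B cell genes had a median of -1.61 with 0 of 16 above 0, NK and cytotoxic genes -1.08 with 1 of 15, and erythroid genes 2.28 with 15 of 15. The cell cycle list had a median of 2.22 there with 20 of 20 above 0, against 0.93 in the training cohort. Mast cell and basophil genes were at 2.73 with 15 of 17 above 0, and stem and progenitor genes at 1.74 with 15 of 20.

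**Figure D5:**
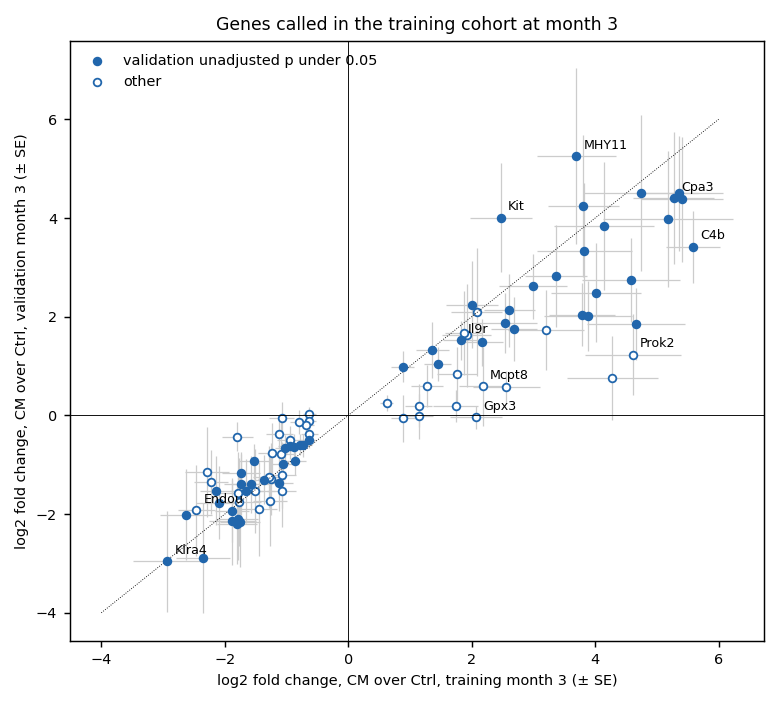
Log2 fold change CM over Ctrl with its SE at month 3 in the validation cohort (vertical axis) against that in the training cohort (horizontal axis) for the 91 called training genes measured in both, filled where the validation p is under 0.05 before adjustment; the dotted line marks equal values. Of the 91 genes 87 lie in the quadrants of equal sign.

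The labels also give the month of the last library of each CM mouse, which ranged over months 4, 4, 6, 6, 7, 9 and 10. It was 4, 4, 6 and 7 in the F mice and 6, 9 and 10 in the M mice. No sex term entered the relations below, so they cannot tell sex and that month apart. Over the 7 CM mice the month 3 level of Cpa3 had r = -0.59 (Pearson, exact permutation p = 0.14) and rho = -0.60 (Spearman, exact permutation p = 0.17) with that month, Mpo r = -0.45 and rho = -0.44, C4b r = 0.35 and rho = 0.13, Mcpt8 r = 0.56 and rho = 0.64, and Cd34 r = 0.55 and rho = 0.53, with exact permutation p values of 0.14 to 0.78. The relation of Kit, the other one of the 6 computed, had the lowest exact permutation p, 0.0571 for Pearson's r and 0.165 for Spearman's rho. None passed after adjustment over the 6 (adjusted p 0.315 to 0.781). Without mice 3368 and 3370, the farthest from the median month, r over the 5 others was -0.80 for Cpa3, -0.30 for Mpo, 0.11 for C4b, 0.40 for Mcpt8 and 0.68 for Cd34. For Kit the CM mice formed separate clusters, 3338 and 3357 against the other 5, so no r over all 7 is given for it.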

How the data were processed

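The submitters' processing notes name the aligner STAR, the build GRCm38, featureCounts of the Subread package and edgeR, without versions. The deposited values are log2 CPM, 1 table per cohort, made by the authors. Turned back with a prior of 0.25 reads, found from the values, 100% came out as whole reads (tolerance 0.01), with totals of 15996368 to 36259517 reads over all training libraries. Libraries were grouped by the labels, each a separate mouse at month 3. No pair of the 14 agreed within sampling noise (lowest chi-square per degree of freedom 14.7 over 91 pairs).

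The deposited log2 CPM were tested with limma 3.58.1 in R 4.3.3 (intensity trend, moderated two-sided test, sex as covariate, Benjamini-Hochberg over all genes of a table), a fit also tested on simulated data. Every adjusted p in the text is from it unless an exact permutation test is named (scipy 1.17.1). The simulation gave all mice the same spread and changed no gene of low abundance. It thus does not cover such genes, or mice that stand apart. Change tests paired the months by mouse, since the labels name the same mice in each month. P-values within a month and of the change tests measure the spread between mice. Those of the title code among Ctrl libraries rest on the spread within mice, and the fit over all months mixes both. Names and coordinates are from RefSeq GRCm38.p6, matched by symbol for 13724 identifiers and by synonym for 1648, while 2242 had no symbol. No strand setting of the counting is given, so overlapping and antisense genes cannot be told apart.

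Named genes were the 12 largest called increases and the 12 largest called decreases with a symbol that is not a predicted one, all called members of the lists, up to 4 members of a list without a call in order of p, and Kit, Cbfb, Myh11 and MHY11. Further list members are named beside their list's count, and genes outside the lists are marked as chosen after their values were seen. The comparison, the lists and the tests were chosen with earlier results of these data known. Intervals and floors (3 reads for a count of 0) cover counting error only. Alternatives were the scaling, the filter on low genes, the log offset, weights, covariates, a replicate block over all months, each sex alone, and leaving out mice; leaving out CM mice 3338 and 3357 together was added after the data were seen.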

Additional observations from a re-analysis of the deposited data

Results flagged for a closer look

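Of 162 sets of 7 values examined (a named gene in 1 arm), 12 held a mouse farther from its nearest neighbour than 0.568 of the range, and chance alone gives about 1 in 20. Among CM mice, Ccl24 was at 4.02 log2 CPM in mouse 3338 and at -0.77 to 1.28 in the others, and Ednrb was at 2.92 in mouse 3338 and at -1.46 to 0.33 in the others. Cd4 was at 4.89 in mouse 3338, below the 5.99 to 6.76 of the others. Hbb-b1, a globin gene, was at 16.69 in mouse 3341 and at 13.29 to 14.73 in the others.

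Among Ctrl mice, 3350 was low in red cell genes: Hba-a1 was at 10.52 in it (11.57 to 12.15 in the others), Hba-a2 at 9.92 (10.98 to 11.57) and Klf1 at -4.19 (-2.75 to -1.71). Mouse 3342 was high for Lcn2, at 5.94 (3.82 to 4.61 in the others), and low for Il5ra, at 2.79 (3.51 to 3.94). HW mouse 3340 was low for Klra8, at 1.23 (2.14 to 2.50), and was the Ctrl mouse with a read of MHY11, at -4.21 (-6.52 in the others). Kif26b had 0 reads in mouse 3346, at -6.52 (-4.21 to -2.82 in the others).

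The change since another month differed between the arms for 6 genes, by a test of that difference (limma). From month 0 to month 3 it was 4.18 for Cpa3, 2.03 for Il9r, 1.86 for Rhbdf1, 5.18 for C4b and 5.27 for Gm16758, CM minus Ctrl on the log2 scale, and from month 2 to month 3 it was 3.79 for F730016J06Rik.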

How the results depend on the processing

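At month 3, 0.313% of the genes tested were called higher and 0.319% lower in CM mice (58 and 59 genes). The shares called higher and lower were 0.681% and 0.303% in 1 fit over all months with the replicate block, 0.351% and 0.227% with the title code added to it, 0.184% and 0.702% on log2 of CPM plus 1, 0.475% and 0.292% with median-ratio scaling, 0.411% and 0.378% with quantile normalization, and 0.205% and 0.351% with voom. With a floor on the mean log2 CPM they were 0.101% and 0.228% (floor 1) and 0.287% and 0.412% (floor -2). They were 0.638% and 1.29% without the sex covariate, 0.162% and 0.0864% without the HW controls, and 1.31% and 1.71% without CM mice 3338 and 3357. Males alone gave 0.432% and 0.14%, and females alone 0% and 0%, with 1706 genes at an unadjusted p under 0.05. With 1 mouse left out at a time, 0.0702% to 0.557% were higher and 0.0216% to 0.535% lower.

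The change from month 0 to month 3 gave 5 calls, against 2 with the floor at 1, 16 without the replicate block, 12 without the sex covariate, 0 without CM mice 3338 and 3357, and 0 to 46 with 1 mouse left out. From month 1 the count was 0, against 1 without the replicate block and 0 to 1 with 1 mouse left out. From month 2 it was 1, against 2 with the floor at 1, 3 with median-ratio scaling, 0 without the replicate block, 0 without the sex covariate and 0 to 5 with 1 mouse left out. Validation gave 0 in every fit run. The title code gave 10 calls among Ctrl libraries and 0 in months 1 to 6 only. With 1 mouse left out, the CM minus Ctrl difference in percent of reads was -0.932 to 1.39 for globin, the sign turning without CM 3341, and -0.0844 to -0.0271 for mitochondrial genes. Of the 85 named genes 0 reversed; the 37 called ones kept the call in 696 of 970 alternative fits, and the others gained one in 28 of 1281. The cause of these shifts was not tested. Depth limits the genes with few Ctrl reads.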
